A study of Danio rerio with 14 samples.

Results

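The transcriptome of solvent control zebrafish larvae at 96 hours post fertilization (hpf) was described from the 4 DMSO libraries among the 12 libraries of the deposited tables. The larvae were of the AB wild-type strain, were taken whole, and had received dimethyl sulfoxide (DMSO) at 0.01% v/v as the vehicle of a toxicity study. In that study embryos were exposed from 3 hpf to the fungicide boscalid or to its metabolite M510F01, and both sequenced groups had 0.03 µg/L. No treatment contrast was made, and the boscalid and M510F01 libraries, 4 of each, served only to show the spread of the same genes within other groups. The labels do not tell whether a replicate is a clutch, a dish or a pool of larvae. The RNA was total RNA from which ribosomal RNA had been removed, so transcripts without a poly(A) tail were also read.

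A larva of this age has hatched, swims, and lives mostly on the rest of its yolk. Its trunk is filled with fast-twitch muscle along a notochord, its retina and lens are formed, and the liver, pancreas and gut have begun to work. In fast muscle, thick filaments of myosin slide along thin filaments of actin, tropomyosin and troponin, titin and nebulin act as rulers, and parvalbumin binds the calcium that the pump Atp2a1 returns to the sarcoplasmic reticulum. Teleost fish went through a whole-genome duplication of their own, and many genes therefore exist as an a and a b copy, which may share the work or leave it to 1 member.

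Reads assigned to genes numbered 13728285 to 14831680 per DMSO library. Of 36351 genes, 27248 had at least 1 read in each library, 22116 had at least 10 reads in each, and 4010 had no read in any. A mean of at least 50 normalized counts, that is, reads divided by the library's size factor, was reached by 18369 genes. Libraries 1 and 2 were the closest, with a median absolute log2 difference of 0.13 per gene and 59 genes at least 2-fold apart. The other pairs had medians from 0.19 to 0.26, and 178 to 414 genes were at least 2-fold apart. Replicates 3 and 4 stood apart in different genes, as given below beside each gene group, and the reason was not tested.

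Because no transcript lengths of the files' annotation were at hand, levels are given as normalized counts and as shares of the reads assigned to genes. A long transcript takes more reads than a short one at equal copy number, so orders of genes are orders of reads, not of molecules. In bulk RNA of a whole animal, fewer cells of a type and less RNA per cell cannot be told apart.

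Reads were concentrated on few genes. The 10 most abundant genes of each library held 14.04%, 13.9%, 12.9% and 13.7% of the reads in replicates 1 to 4. The 100 most abundant held 26.5% to 27.8%, and the 1000 most abundant held 48.5% to 51.2%. It took 1110, 1025, 911 and 989 genes to reach 50% of the reads, so replicate 3 was the most concentrated beyond the leading genes although its share of the 10 leading genes was the lowest. A mean of at least 1000 normalized counts was reached by 2619 genes, and 92 of them had at least 10 times that mean.

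The leading genes were the giant proteins and motors of the sarcomere. The titin gene ttn.1 (LL0000031335) had 384704, 394279, 373092 and 364785 normalized counts in replicates 1 to 4, a mean of 379215 ± 12946 (SD, n = 4) and 2.63% of all reads. Its neighbour ttn.2 (LL0000031336) had 344996, 345288, 319879 and 317392, and 2.302% of the reads. Titin spans from the Z-disc to the M-line and is encoded by a very long transcript. All 4 values of ttn.1 lay above all 4 of ttn.2, and together the 2 genes held 4.93 ± 0.23% of the reads. The fast myosin heavy chain myhz1.1 (LL0000040072) had 209840, 231215, 263364 and 227596 normalized counts, or 1.61% of the reads, lowest in replicate 1 and highest in replicate 3. With myhz1.2, myhz1.3 and myhz2 it made up 2.92 ± 0.24% of the reads, but these genes are near-identical tandem copies among which reads can be split wrongly.

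Other muscle genes filled many of the remaining places among the 25 genes of highest mean. The actin gene actc1b had 121256, 148170, 142041 and 137570 normalized counts (0.951% of reads), and its range lay above that of the next gene, mt-co1. The parvalbumin gene pvalb1 had 66293, 82281, 97406 and 79561, and pvalb2 had 49298, 59594, 71769 and 58211. Both were highest in replicate 3 and lowest in replicate 1. The calcium pump atp2a1 (64370 ± 5311), the regulatory light chain mylpfa (59874 ± 4637), the thin-filament ruler neb (54737 ± 5180), the tropomyosin tpma (50095 ± 7728) and the creatine kinases ckma (49313 ± 7100) and ckmb (42052 ± 4718), which buffer ATP, completed the muscle genes. The genes of the muscle set did not share 1 order of libraries, since neb and atp2a1 were low in replicate 3, where pvalb1, tpma and ckma were high.

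**Figure D1:**
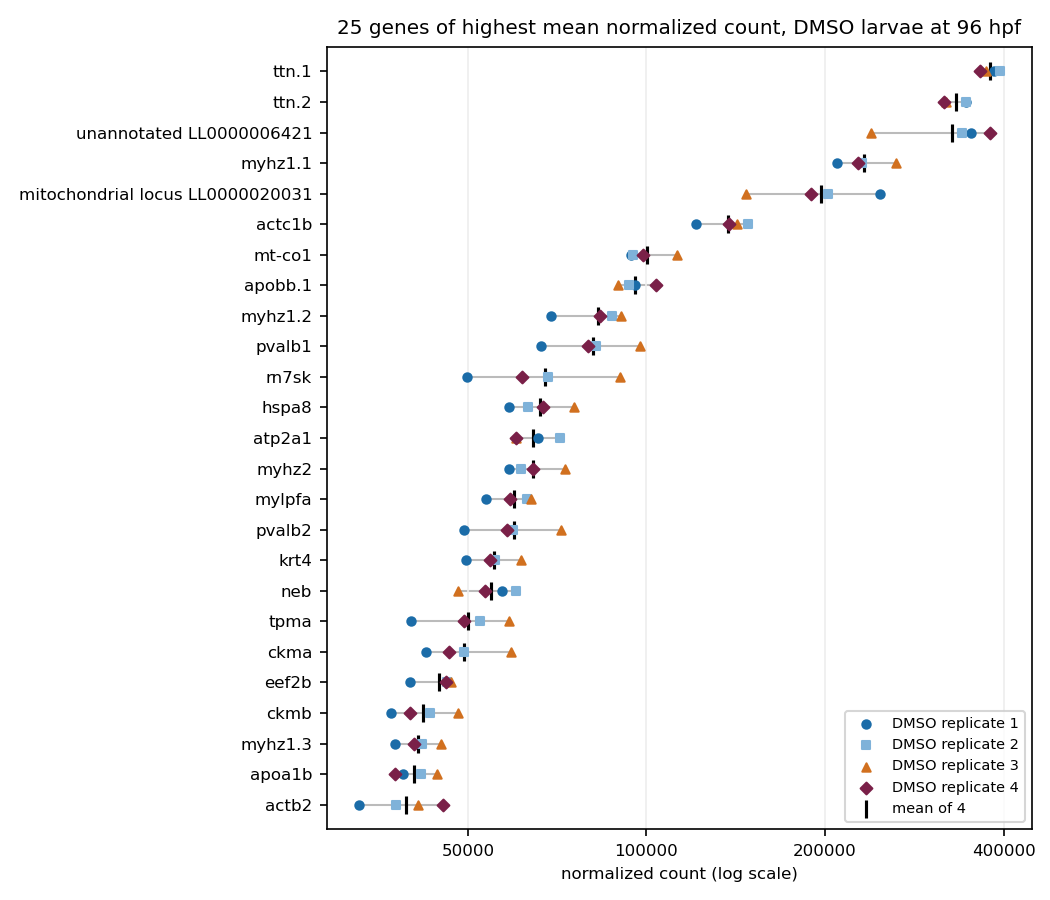
Normalized counts (log axis) of the 25 genes of highest mean in the 4 DMSO libraries. Coloured symbols are single libraries, black bars the mean, grey lines the range. Ranges of neighbours overlapped except for ttn.1 above ttn.2 and actc1b above mt-co1. Replicate 1 (blue circles) was lowest for most of the muscle genes, and also for mt-co1, rn7sk, hspa8, krt4, eef2b and actb2. It was not lowest for apobb.1 and apoa1b. Over all genes with a mean of at least 50, 27.9% were lowest in replicate 1.

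Of the 25 leading genes 15 belonged to muscle, and 8 named genes belonged to other systems. The apolipoprotein gene apobb.1, whose product is the scaffold of lipoprotein particles made in yolk syncytium, liver and gut, had 95726, 93527, 89384 and 103602 normalized counts (0.663% of reads), and apoa1b had 40610 ± 2973. The periderm keratin krt4 had 55238 ± 4802, the constitutive chaperone hspa8 had 66038 ± 7208, the translation factor eef2b had 44732 ± 3257 and the cytoskeletal actin actb2 had 39316 ± 5384. The mitochondrially encoded cytochrome oxidase subunit mt-co1 had 94022, 95074, 112440 and 98788. The small nuclear RNA gene rn7sk, whose RNA holds the elongation factor P-TEFb inactive and carries no poly(A) tail, had 49817, 68180, 90345 and 61700. Its highest value was 1.81 times its lowest, the widest ratio among the 25 genes.

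Among the 5 most abundant genes, 2 carried no gene name. The locus LL0000006421, with a clone name only, had 351814, 339777, 238771 and 379991 normalized counts (2.27% of reads). The locus LL0000020031, whose symbol is that of the mitochondrial genome sequence, had 247723, 202365, 147024 and 189625 (1.37% of reads). Both were lowest in replicate 3, and together they took 4.24%, 3.74%, 2.65% and 3.93% of the reads in replicates 1 to 4. The 30 genes assigned to the mitochondrial genome by symbol, LL0000020031 included, held 3.23 ± 0.26% of the reads. A family of 12 genes named for mitochondrially encoded proteins held 1.49 ± 0.08%. Not among those 12 were LL0000020031 and COX3, the latter with 0.252% of the reads.

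Shares of reads were summed over 47 lists of genes known to mark organs, cell types, stages and processes. The lists share members, so that their shares do not add up. Of 1324 entries 1283 matched a gene of the table.

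Fast skeletal muscle was the largest of the 47 lists, with 7.54%, 8.57%, 9.07% and 8.09% of the reads in replicates 1 to 4 (8.32 ± 0.65%) over 39 genes, all with at least 10 reads in each library. The slow-muscle list held 0.346 ± 0.035%, and the slow myosin heavy chain smyhc1 alone (21744, 20082, 26783 and 22002 normalized counts) made up 45.4% of it. Of the 39 fast-muscle genes, 29 were highest in replicate 3 and 28 lowest in replicate 1. Over all 18369 genes with a mean of at least 50, 32.3% were highest in replicate 3 and 27.9% lowest in replicate 1. The heart list held 5.00 ± 0.23%, but ttn.1 and ttn.2, which skeletal muscle shares, made up nearly all of it. Without them the heart list came to 0.0638 ± 0.0036% of the reads. Heart-restricted genes were low in a whole larva: the light chain myl7 had 233.4, 251.4, 337.3 and 228.3 normalized counts, the atrial myosin gene myh6 had 306.3, 279.5, 253.0 and 168.1, and the natriuretic peptide gene nppa had 107.3, 149.6, 102.9 and 79.3.

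The skin list held 1.18 ± 0.12% of the reads, or 0.719 ± 0.090% over genes of no other list. Its leading genes were krt4 with 0.383%, krt91 with 0.0966% and krt8 with 0.0750%, keratins of the superficial and basal layers. The ionocyte list, made of the cells that take up ions through the skin, held 0.226 ± 0.011%, led by the sodium pump subunit atp1a1a.1 (8053 ± 319 normalized counts) and the ammonia channel rhbg. The mucus cell list held 0.0704 ± 0.0090%, with the gel-forming mucin muc5.1 at 5255, 4100, 3357 and 5069. Of 44 epidermal genes with a mean of at least 50, 22 were highest in replicate 4 and 21 in replicate 3, where 26.6% and 32.3% of all genes were highest.

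Fibrillar collagens and the summed shares of the matrix lists were lowest in replicate 3. The cartilage list held 0.642%, 0.535%, 0.459% and 0.612% of the reads, and the list of connective tissue and fin fold 0.860%, 0.8288%, 0.651% and 0.772%. Fibrillar collagen genes, which make the banded fibres of bone, skin and cartilage, held 0.816%, 0.712%, 0.475% and 0.668%. The cartilage collagen col2a1a had 24815, 19009, 9748 and 19681 normalized counts, and the bone and skin collagen col1a1a had 12754, 11070, 5154 and 7742. Both were highest in replicate 1 and lowest in replicate 3. Of the 16 fibrillar collagens measured, 12 were lowest in replicate 3, against 29.2% of all genes. The lists as a whole were mixed, since 11 of 28 cartilage genes were lowest in replicate 3 and 13 in replicate 2, and of 37 connective tissue genes 12 were lowest and 14 highest in replicate 3. Collagens outside this class held 0.469 ± 0.013%, with 0.457% in their lowest library.

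The liver list held 1.93 ± 0.07% of the reads over 63 matched genes, of which apobb.1 made up 34.4%, and 0.521 ± 0.049% over genes of no other list. Fabp10a, the liver-type fatty acid binding protein used as a hepatocyte marker, had 1932, 2568, 3642 and 1705 normalized counts, whereas transferrin tfa ran only from 6098 to 7894. Apolipoproteins as a family held 1.47 ± 0.05%, of which apobb.1 took 45.2% and apoa1b 19.2%. The intestine list held 0.738 ± 0.086%, but krt4, which periderm also makes, was 52.0% of it, and genes of no other list came to 0.183 ± 0.049%. The acidic chitinase chia.2 followed with 5601, 6365, 10160 and 5119, and the lipoprotein gene apoa1a with 7200, 7410, 4072 and 7792, opposite in the place of replicate 3. Of 36 intestinal genes 28 were highest in replicate 3, against 32.3% of all genes.

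The exocrine pancreas list was highest in replicate 3. Its share was 0.612%, 0.559%, 0.885% and 0.526% of the reads, and without replicate 3 the mean was 0.566 ± 0.044% in place of 0.646 ± 0.163%. The digestive proteases prss59.2 (10577, 11859, 19895 and 11700 normalized counts), prss1 (9897, 9495, 15787 and 9228) and ctrb1 (9562, 9277, 13225 and 9380) led it. All 26 members with a mean of at least 50 were highest in replicate 3, against 32.3% of all genes, and 20 were lowest in replicate 4, against 26.1%. Hormone genes of the endocrine pancreas did not share this order: ins had 172.3, 150.6, 133.3 and 174.4, and somatostatin sst2 had 162.5, 240.0, 196.1 and 271.7.

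The lens list held 0.747 ± 0.052% of the reads. Crystallins are the abundant proteins that make the lens refract light. Counted over all genes with such a symbol, of which the list held a part, beta crystallins had 0.360 ± 0.021%, gamma crystallins 0.464 ± 0.038% and alpha crystallins only 0.0037 ± 0.0005%. Of the 33 lens genes with a mean of at least 50, 30 were highest in replicate 3, against 32.3% of all genes. The leading gene crybb1l1 had 9871, 9184, 10637 and 9441 normalized counts. Gamma crystallin genes of the crygm2d cluster are similar copies, and how reads that match several copies were counted is not known, so their values are uncertain.

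The cone list held 0.408%, 0.364%, 0.505% and 0.288% of the reads, and the rod list 0.113%, 0.103%, 0.112% and 0.0876%. Of the rod list's mean of 0.104%, gnb1b, 1 of the least variable genes given below, held 0.0234%. Cones, the daylight photoreceptors, mature before rods in zebrafish. Among visual opsins the ultraviolet opsin opn1sw1 took 52.1 ± 3.5% of the reads, with 14927, 13630, 19618 and 10148 normalized counts. The red opsin opn1lw2 had 5348, 4953, 4734 and 2761, and rhodopsin rho had 3523, 3154, 2209 and 2248. The opsins were not ordered alike, since opn1sw1 was highest in replicate 3 while rho was lowest there. Most rod genes differed from rho. Of 17 rod genes with a mean of at least 50, 11 were highest and 3 lowest in replicate 3, against 32.3% and 29.2% of all genes. Lowest in replicate 4 were 12 of the 17, against 26.1% of all genes. All 23 cone genes with a mean of at least 50 were lowest in replicate 4, against 26.1% of all genes. Of these 23 genes, 20 were highest in replicate 3, against 32.3% of all genes.

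Neuron and transmission genes were low in replicate 4 as well. The neuron list held 0.408%, 0.375%, 0.374% and 0.295% of the reads, or 0.386 ± 0.019% without replicate 4. The list of inhibitory and excitatory transmission held 0.220%, 0.198%, 0.195% and 0.149%. Elavl3, an RNA-binding protein of young neurons, had 5934, 5614, 4592 and 4786 normalized counts. The neuronal sodium pump atp1a3a had 5049, 4605, 3625 and 3037, and the glycine transporter slc6a9 had 4780, 4383, 3802 and 3213. Of 31 neuron genes 27, and of 18 transmission genes all 18, were lowest in replicate 4, against 26.1% of all genes. The 3 genes shown do not stand for the list in replicate 3. Of the 31 neuron genes 17 were highest there and 13 in replicate 1, against 32.3% and 27% of all genes, and only elavl3 was lowest in replicate 3. Of the 18 transmission genes 6 were highest in replicate 3 and 11 in replicate 1. The summed shares of radial glia and myelinating glia did not follow, at 0.302 ± 0.007% and 0.0434 ± 0.0017%. Their single genes were mixed. Of 17 radial glia genes 7 were lowest and 5 highest in replicate 4, and of 14 myelinating glia genes 3 and 4. Over all genes these parts were 26.1% and 26.6%. The glial glutamine synthetase glula was among those highest in replicate 4 (9951, 10737, 10482 and 13196).

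**Figure D2:**
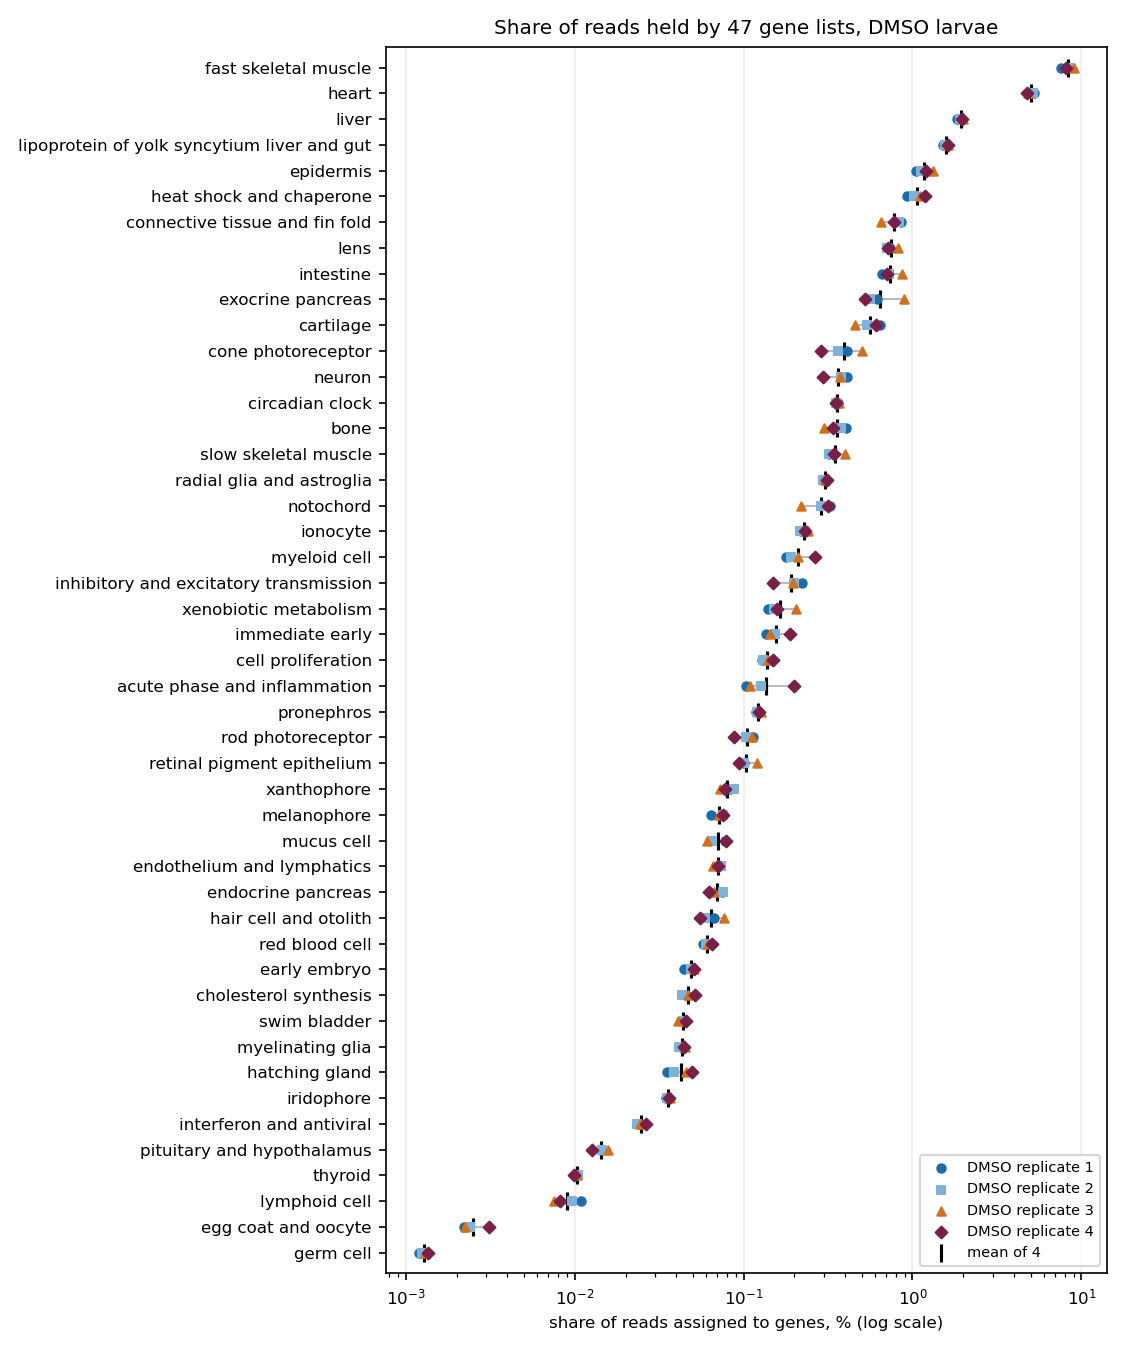
Share of reads (percent, log axis) of 47 gene lists in the 4 DMSO libraries, ordered by mean. Coloured symbols are single libraries and black bars the mean. Fast muscle led with 8.32%, and the germ cell list was lowest with 0.00128%.

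Blood and immune cells held small shares. The red blood cell list came to 0.0611 ± 0.0033% of the reads, and 13 globin genes together to 0.0167 ± 0.0022%. The embryonic beta globin hbbe1.1 had 1385, 1215, 1218 and 1352 normalized counts and the alpha globin hbae3 had 561.3, 623.3, 339.2 and 742.1, while the adult-type hbaa1 had no read in any library. Globin genes lie in clusters of near-identical copies, and how reads that match several copies were counted is not known. Single values are therefore uncertain, and the globin sum would be too low if such reads were left out. The myeloid list held 0.210 ± 0.038%, of which apoeb, also made by other cells, was 43.9%, and only 0.0234 ± 0.0046% over members of no other list. The neutrophil peroxidase mpx had 255.1, 267.0, 195.1 and 371.0, and the macrophage gene mpeg1.1 had 166.4, 128.8, 158.8 and 182.9. Of 21 myeloid genes 17 were highest in replicate 4, against 26.6% of all genes. The lymphoid list held 0.0091 ± 0.0015%, and its recombinase genes rag1 (18.7, 30.1, 17.6 and 29.6) and rag2 (6.89, 6.23, 9.80 and 6.34) were near the limit of what these libraries measure.

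Markers of eggs, early embryos and the hatching gland were low. The egg coat and oocyte list held 0.00249 ± 0.00043% of the reads, and the early embryo list 0.0488 ± 0.0029%, of which apoc1, matched through an older name and made by liver and yolk syncytium, was 56.0%. The pluripotency factor nanog had 0, 0, 2.94 and 1.06 normalized counts, and the zona pellucida gene zp2.1 had 0, 0, 0.980 and 1.06. Of the 2 loci named he1.1, a hatching enzyme, 1 had no read in replicates 1, 2 and 3 and 4.23 normalized counts in replicate 4, the other had no read, and he1.2 had 0, 0, 2.94 and 16.9. The hatching gland list of 0.0425 ± 0.0065% therefore rested on genes of wider use, led by the secretory factor xbp1 and the lysosomal membrane protein cd63. Germ cell genes held 0.00128 ± 0.00007%, with ddx4 (vasa) at 11.8, 9.35, 13.7 and 9.51 normalized counts.

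Pigment cells, the kidney and the vessels held small shares each. The melanophore list had 0.0718 ± 0.0053% of the reads, led by pmela, which builds the fibrils of the melanosome (2197, 2815, 2874 and 2844 normalized counts). The xanthophore list had 0.0801 ± 0.0069%, of which mycbp2, a ubiquitin ligase also found in neurons, was 46.0%, and gch2, of pteridine synthesis, had 604, 1013, 838 and 693. The iridophore list had 0.0356 ± 0.0010%, led by the purine enzymes impdh1b, gmps and atic. The pronephros list had 0.122 ± 0.004%, led by the sodium pump atp1a1a.4 (3356, 3428, 4646 and 4333), and the endothelium list 0.0702 ± 0.0031%, with the vascular receptor kdrl at 803, 897, 831 and 949.

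Small sensory and endocrine organs could still be read. The hair cell and otolith list had 0.0644 ± 0.0096% of the reads, of which stm, starmaker of the otolith, was 48.9% with 4622, 3795, 6121 and 3781 normalized counts. The thyroid list had 0.0103 ± 0.0003%, with thyroglobulin tg at 354.5, 443.6, 233.3 and 385.8. The pituitary and hypothalamus list had 0.0143 ± 0.0013%, with prolactin prl at 73.9, 111.2, 66.7 and 142.7 and growth hormone gh1 at 75.8, 67.5, 96.1 and 72.9. The hormone genes prl and gh1 differed in order, since gh1 was highest and prl lowest in replicate 3. Of 12 pituitary and hypothalamus genes with a mean of at least 50, 8 were highest in replicate 3, against 32.3% of all genes. Of 16 hair cell and otolith genes 8 were highest there, and of 6 thyroid genes 3.

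Process lists gave levels of housekeeping and response genes in animals without a toxicant. As a sum, the circadian clock list was the steadiest of the 47 relative to its mean, at 0.363%, 0.353%, 0.367% and 0.354% of the reads, led by the cryptochrome cry1ba (8114, 7664, 7415 and 7388 normalized counts) and per3 (5655, 4759, 3509 and 3737). Its single genes were not steady, with a median coefficient of variation, counting error taken off, of 16.1% against 11.4% over all genes. Of 33 members 17 were highest and 12 lowest in replicate 3, against 32.3% and 29.2% of all genes. The xenobiotic list held 0.140%, 0.151%, 0.205% and 0.157%. Of its 33 genes with a mean of at least 50, 26 were highest in replicate 3, against 32.3% of all genes. The detoxifying enzyme cyp3a65 had 1334, 1787, 3493 and 1698. Cell proliferation genes held 0.137 ± 0.009%, cholesterol synthesis genes 0.0469 ± 0.0034% and interferon genes 0.0246 ± 0.0013%.

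Stress and inflammation lists were highest in replicate 4, as were some other process lists. The acute phase and inflammation list held 0.104%, 0.126%, 0.110% and 0.2001% of the reads, or 0.113 ± 0.012% without replicate 4 in place of 0.135 ± 0.045%. Of its 19 genes with a mean of at least 50, 14 were highest in replicate 4, against 26.6% of all genes. The chaperone list held 0.927%, 1.02%, 1.11% and 1.19% of the reads, and the constitutive hspa8 made up 43.3% of it. Of 34 chaperone genes 18, and of 32 immediate early genes 17, were highest in replicate 4. The rise was not particular to these lists. Cell proliferation had 0.149% in replicate 4, with 18 of 37 genes highest there. Cholesterol synthesis had 0.0516% with 11 of 21, and interferon 0.0264% with 7 of 13. The lipoprotein list had 1.63%, but 14 of its 22 genes were highest in replicate 3. The circadian and xenobiotic lists were highest in replicate 3. Markers of myeloid cells, neurons and cones moved in replicate 4, as given above, and the part of each in the others was not tested.

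**Figure D3:**
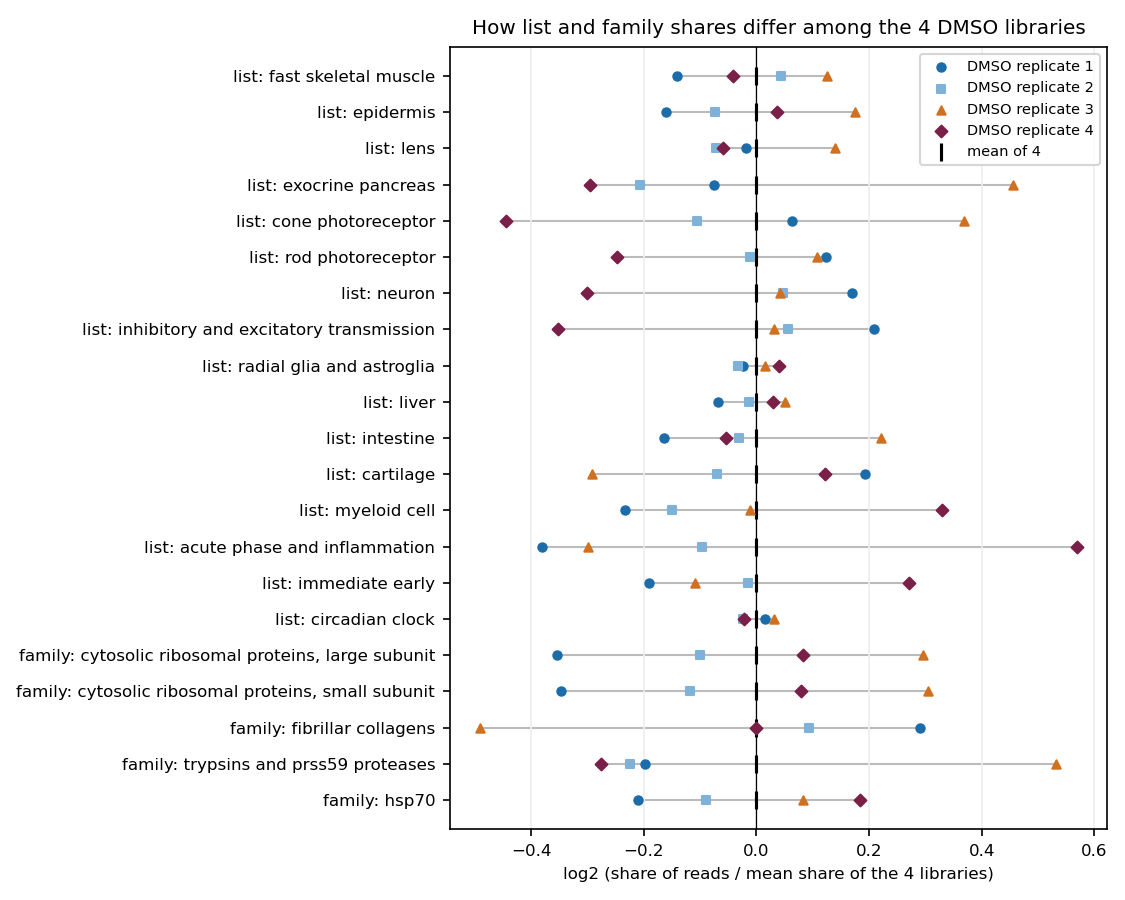
Shares of reads of 16 lists and 5 gene families in each DMSO library, as log2 of the share over the mean of the 4 libraries. Replicate 3 (orange triangles) was highest for pancreas, cone and ribosomal protein genes and lowest for fibrillar collagens. Replicate 4 (purple diamonds) was lowest for cone and neuron lists and highest for inflammation.

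Cytosolic ribosomal protein genes moved as blocks. The 49 genes of the large subunit held 1.73%, 2.07%, 2.72% and 2.34% of the reads, and the 35 of the small subunit 1.18%, 1.38%, 1.84% and 1.58%. Over all genes, 32.3% were highest in replicate 3 and 27.9% lowest in replicate 1. Of 48 large-subunit genes with a mean of at least 50, 46 were highest in replicate 3 and 47 lowest in replicate 1. All 35 small-subunit genes were highest in replicate 3. All 17 nuclear ATP synthase genes and 33 of 35 nuclear complex I genes were also highest in replicate 3. These counts were the same under rescaling by TMM or by the plain read total. Within these families no member led by much, with rplp0 at 6.00% of the large-subunit reads and rpsa at 7.78% of the small-subunit reads.

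Families differed in how far 1 gene supplied the product. Of 56 families defined by symbol, 49 had the same leading gene in all 4 libraries. In 22 families the leader held at least 50% of the family's reads, and in 3 at least 90%. Those 3 were the alpha crystallins with cryaa at 96.3 ± 1.5%, troponin C with tnnc2 at 93.8 ± 0.5%, and the alpha globins with hbae3 at 91.3 ± 1.5%.

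The thin filament leaned on 1 gene per part. Actc1b held 89.5 ± 0.3% of the reads of the skeletal and cardiac actins, tnnt3b 89.0 ± 0.5% of troponin T, tpma 77.3 ± 1.3% of the tropomyosins and tnni2a.4 69.8 ± 1.9% of troponin I. In the thick filament myhz1.1 held 50.5 ± 0.4% of the sarcomeric myosin heavy chain reads, and mylpfa 55.2 ± 0.6% of the light chain reads. Parvalbumins and creatine kinases were shared by a pair of genes each. Pvalb1 held 54.8 ± 0.3% and pvalb2 40.2 ± 0.2%, and ckma held 46.1 ± 0.4% and ckmb 39.4 ± 1.1%. For pvalb1 and ckma these SDs are small beside those of the levels, but members of a family did not all peak in the same library, since actc1b was highest in replicate 2 and actc1a in replicate 4.

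Outside muscle, the constitutive members led the chaperone families. Hspa8 held 79.8 ± 6.5% of hsp70 reads, with 70.4% in its lowest library, and hsp90ab1 held 71.5 ± 3.2% of hsp90 reads. In the lens, the beta and gamma crystallins were spread over many genes, with crybb1l1 at 18.9 ± 0.4% of the beta and crygn2 at 9.33 ± 0.40% of the gamma crystallins. Krt4 held 41.3 ± 1.7% of the keratin reads. Fibrillar collagens were led by col2a1a, whose part ran from 14.1% to 21.5%, and the leader was not the same in every library. The detoxification families were led by cyp1a with 50.7 ± 4.7% of cyp1, cyp3a65 with 70.32 ± 5.7% of cyp3 and cyp2y3 with 22.96 ± 1.5% of cyp2. Hox genes, which set position along the body axis, held 0.0505 ± 0.0010% over 49 genes, led by hoxb3a with 13.2 ± 1.6%.

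Gene pairs named a and b were compared over the whole table. The table held 2920 such pairs, and 2668 had a combined mean of at least 100 normalized counts and were described. The rule goes by name alone, so it also takes subunits and family members that are lettered without being duplicates. The higher member held a median of 69.6% of the pair's reads. At least 90% was held by the higher member in 371 pairs (13.9%), called dominant here, and at most 60% in 729 pairs (27.3%), called balanced. The a member led in 1487 pairs (55.7%), and among dominant pairs in 230 of 371. The pair just outside the dominant class stood at 89.97%.

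Leaders were stable over the 4 libraries. The same member led in all 4 libraries in 2360 pairs. It changed in 308, of which 299 were balanced and none dominant. In 69 pairs the higher member held at least 99%.

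The dominant pair with most reads was actc1, where actc1b held 99.1% and actc1a had 1287 ± 72 normalized counts against 137260 ± 11520. In muscle too, tnnt3b held 94.8% of its pair, and mybphb, a myosin-binding protein, held 97.0%. Hdlbpa held 95.4% of the reads of the RNA-binding protein vigilin, and macf1a 99.4% of a cross-linker of microtubules and actin. Mknk2b, a kinase that acts on the cap-binding factor eIF4E, held 95.6%. Flna, a filamin paired with flnb by name alone, held 93.0%. Ckbb, the brain-type creatine kinase, held 91.4%, and txnipa, a thioredoxin-binding protein, held 91.3%. In each of these pairs the leader was the same in every library, as the definition of dominant requires. The lowest share in a single library among them was 88.8%, for ckbb.

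Balanced pairs included abundant genes too. The creatine kinase pair ckm, with 53.9 ± 0.9% in ckma, had the most reads of them. In col1a1 the b member held 56.3%, in plec, a linker of filaments, 54.7%, in myom1, a protein of the M-line, 56.5%, and in syne1, which anchors nuclei, 57.7%. Rpl5b, a ribosomal protein gene, held 58.2% of its pair. The glycolytic pair aldoa changed its leader, since the b member's part ran from 43.2% to 56.8%. So did arrdc3, an arrestin-domain pair, with 48.7% to 55.3% in the b member. The pair lrp1a, a lipoprotein receptor, is lrp1aa and lrp1ab by the name rule, with 59.4% in the latter, and in col12a1 the a member held 54.7%.

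A few pairs had shares that moved from library to library. In smc1, cohesin subunits, the a member held between 14.3% and 98.3% of the reads, as smc1a had 83.7, 180.8, 0.980 and 205.1 normalized counts. The low share rests on few reads, since smc1a had 1 read in replicate 3 and smc1b a mean of only 5.03 normalized counts. In timp2, inhibitors of matrix proteases, the a member's part ran from 44.2% to 86.4%. In dnajb1, co-chaperones of Hsp70, it ran from 44.7% to 77.4%, and in p4ha1, the prolyl hydroxylase of collagen, from 51.4% to 77.9%.

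**Figure D4:**
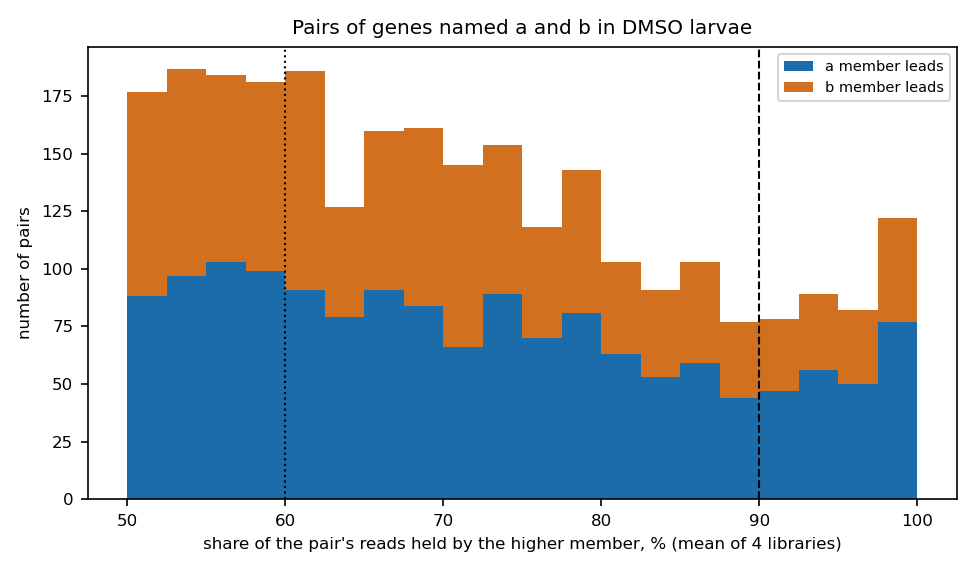
Number of a and b pairs (vertical axis) by the share of the pair's reads held by its higher member (percent, mean of the 4 DMSO libraries), for 2668 pairs. Colours tell which member led, the dotted line marks 60% and the dashed line 90%. Balanced pairs, 729, outnumbered dominant ones, 371.

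The spread of each gene between the 4 libraries was measured as a biological coefficient of variation (CV), the SD left after the counting variance is taken off, as a percent of the mean. Over 18369 genes the median was 11.4%, with quartiles of 5.97% and 17.8% and a 95th percentile of 30.4%. The counting CV had a median of 5.95%. For 2289 genes (12.5%) the spread was no larger than counting error gives. A CV over 50% was found in 134 genes, 0.729% of those examined, and over 100% in 9. The gene just inside this limit had 50.3% and the gene just outside had 49.8%.

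Most of the variable genes were high in replicate 4. Of the 134, 87 were highest in replicate 4, 28 in replicate 3, 11 in replicate 1 and 8 in replicate 2, and 70 were lowest in replicate 3. Without replicate 4, 79 genes had a CV over 50%, and without replicates 1, 2 and 3 the counts were 182, 238 and 124. Over all genes 27%, 14.1%, 32.3% and 26.6% were highest in replicates 1 to 4. A gene is chosen here because 1 library differs, so the counts describe which library that was. The mean of at least 50 is also taken with that library counted, so a gene of low level can pass through it.

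Stress-inducible chaperones led the named variable genes, which had to carry a symbol other than a clone or locus name. Hsp70l (LL0000012368) had 617.5, 1199, 609.8 and 6652 normalized counts, a CV of 129%. Hsp70.1 had 174.3, 365.7, 138.2 and 1423, hsp70.2 had 526, 950, 538 and 2692, and hsp70.3 had 795, 1578, 707 and 4580. Their reads can be split between near-identical copies, and all 4 genes gave the same order, with replicate 4 above replicate 2 and both above replicates 1 and 3. The constitutive hspa8 was not highest in replicate 4 but in replicate 3.

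Genes of inflammation and matrix breakdown followed the same order in most cases. The collagenase gene mmp13a had 282.6, 530.9, 101 and 2034 normalized counts, and the gelatinase gene mmp9 had 818, 992, 332 and 3515. The cytokine gene il1b had 52.2, 77.9, 31.4 and 267.4, and timp2b, a protease inhibitor, had 396, 1353, 196 and 2279. Irg1l, named after the itaconate-forming enzyme of mammalian macrophages, differed in that replicate 3 was second, with 420, 751, 1138 and 3110.

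The remaining named variable genes had other roles. Egln3, a prolyl hydroxylase that marks hypoxia-inducible factor for breakdown, had 54.2, 135.1, 44.1 and 426.0 normalized counts. The leptin gene lepb had 35.5, 70.6, 0.980 and 111.0, with 1 read in replicate 3. The phosphatase subunit ppp1r27b had 79.8, 307.5, 13.7 and 647.0. The yolk protein gene vtg7 had 31.5, 51.9, 11.8 and 114.2, and the F-box gene fbxl3l had 24.6, 60.3, 19.6 and 123.7. Glucokinase gck, which commits glucose to storage in liver, was the exception, with 68.9, 250.4, 50.003 and 52.9 and replicate 2 as the high library. Without replicate 4, 9 of these 15 genes still had a CV over 50%. Hsp70l then had 41.6%, and without replicate 2 gck had 11.9%. Lepb, vtg7 and fbxl3l reached a mean of 50 only with replicate 4 counted.

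Genes with a CV over 50% were a larger part of some lists than the 0.729% of all genes, which describes lists that were chosen with earlier results of these data known. The chaperone list had 6 of 34, hsp70l, hsp70.1, hsp70.2, hsp70.3, dnajb1b and the stress factor atf3, and all were highest in replicate 4. The inflammation list had 5 of 19, il1b, mmp9, timp2b, irg1l and the transcription factor cebpb, again all highest in replicate 4. The immediate early list had 3 of 32, atf3, fosl1a and junba, and the myeloid list 3 of 21, cebpb, mmp9 and il1b, which the inflammation list shares. The intestine list had 2 of 36, the alkaline phosphatase alpi.2 (92.6, 126.7, 294.1 and 94.1 normalized counts) and the protease mep1a.2, both highest in replicate 3. The ionocyte list had 2 of 24, also highest in replicate 3, the chloride channel clcn2c (36.4, 36.4, 128.4 and 28.5) and the cotransporter slc12a10.2 (190.1, 144.4, 471.6 and 182.9).

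**Figure D5:**
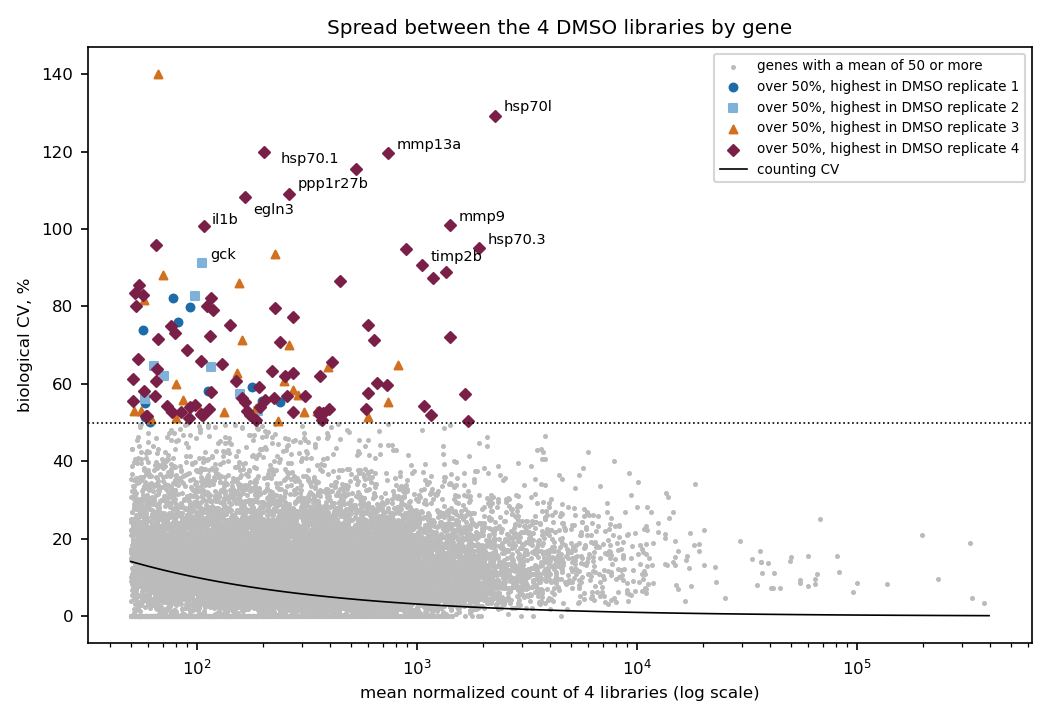
Biological CV (percent) against mean normalized count (log axis) of 18369 genes in the 4 DMSO libraries. Coloured symbols mark the 134 genes over 50% by the library in which each was highest, the curve is the counting CV for reads equal to the normalized count, and 10 named genes are labelled. Replicate 4 (purple diamonds) was the highest library of 87 of the 134.

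At the other end, 15 genes with a mean of at least 500 varied least. Gnb1b, a G protein beta subunit, had 3369, 3394, 3383 and 3365 normalized counts. Oaz2a, an inhibitor of polyamine synthesis, had 2942, 2961, 2972 and 2942, and ogdha, a subunit of the 2-oxoglutarate dehydrogenase of the citric acid cycle, had 4549, 4454, 4474 and 4488. The others were eml1, ablim3, sec63, ctdspl2a, unc5b, trip11, hnrnpd, ywhaqa, fmr1, cwc22, sp3b and galnt2. Some of these act at microtubules, actin, the endoplasmic reticulum, the Golgi, axon guidance or RNA. For each of the 15 the SD of the log2 values was below that of counting error alone, 0.0057 against 0.025 for gnb1b. Counting error therefore limits their order, and many other genes may be as steady. The cytoskeletal actin actb2, often used as a reference gene, was not among them.

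The variable genes were then looked at in libraries that had not served to choose them. Within the boscalid group 210 of 18281 genes with a mean of at least 50 (1.15%) had a CV over 50%, and within the M510F01 group 83 of 18358 (0.452%). Of the 134 genes variable in DMSO larvae, 106 reached that same mean of 50 in the boscalid libraries, and 26 of these (24.5%) passed 50%. In the M510F01 libraries 110 reached it and 31 (28.2%) passed. Their median CV was 38.1% and 33.2%, beside 12.3% and 10.1% over all genes. Of the 15 named variable genes 11 reached that mean in the boscalid group and 5 passed, mmp13a at 76.4%, mmp9 at 74.9%, ppp1r27b at 94.4%, gck at 61.7% and timp2b at 71.6%. In the M510F01 group 10 reached it and irg1l alone passed, at 76.1%. Hsp70l had 42.5% and 26.3%. The 15 steady genes had a median CV of 6.99% and 5.08%.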

How the data were processed

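Per the labels' protocols, stranded libraries were prepared from total RNA of whole larvae after removal of ribosomal RNA and read as paired ends. FastQC, cutadapt, STAR, featureCounts and DESeq2 are named, without versions, in the processing notes of the submitters. Neither the build nor the annotation nor the strand setting is stated there, so reads of overlapping genes may be mixed. The values that the authors deposited are a signal per gene in normalized counts, obtained by dividing reads by a size factor for each library. Their steps gave back the whole reads (100% of values whole within 0.01 reads). Depth is given in the report.

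Shares of reads, ranks, leading members and biological CVs were computed from these reads with Python 3.11.15, pandas 2.3.3 and numpy 2.4.6. TMM factors came from edgeR 4.0.16 in R 4.3.3. The CV formula was checked on simulated counts for its average over many genes, not for single genes or their order. No test between groups was made, and an exact paired test over 4 libraries cannot go below p = 0.125.

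Members and lists were chosen with earlier results of these data known. The genes named were the 25 of highest mean, the 3 highest members of each list, the 2 leading members of each family, the 10 dominant and 10 balanced pairs with most reads, and the 15 most and 15 least variable genes. Of the dominant pairs, 1 is not reported here. Defining markers such as myl7, ins, rag1, nanog and he1.1, and other list members given as examples, were named after their values were seen. Planned comparisons per kilobase of coding length and of promoter sequence were not run, since no sequence tables were at hand. Samples titled Boscalite are those of M510F01 by their treatment label. The fifth sample of each compound was not analysed here.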

Additional observations from a re-analysis of the deposited data

Results flagged for a closer look

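Among 162 values examined for 1 library far from the other 3, 10 met Dixon's limit for 4 samples. Chance gives about 1 in 20, so a count of 10 is close to what chance gives, and the values below are a description. Replicate 3 was apart and high for the gamma crystallins (0.521% of reads, others 0.437% to 0.450%), for the trypsin family (0.293%, others 0.167% to 0.176%) and for the connexins (0.0386%, others 0.0344% to 0.0351%). Replicate 1 was apart and low for the elongation factors (0.744%, others 0.808% to 0.815%), for their leading gene eef2b (39883 normalized counts, others 46003 to 46901) and for the serpins (0.0788%, others 0.0927% to 0.0940%).

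Replicate 4 was apart and high for hsp70l (6652 normalized counts, others 610 to 1199) and low for fmr1 (802, others 818 to 821). Replicate 2 was apart and high for gck (250.4, others 50.003 to 68.9) and low for ywhaqa (1034, others 1053 to 1055). Hsp70l and gck were examined because they are among the most variable genes of these libraries, and fmr1 and ywhaqa because they are among the least variable, so their gaps are no independent sign. Those of fmr1 and ywhaqa are smaller than counting error.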

How the results depend on the processing

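No paired analysis was possible because no groups were compared. Of 66 recomputed values for 11 main results 58 stayed close to the value reported, and of 706 for 144 single lists, families and genes 675 did. Rescaling by TMM and by the plain read total moved none of 43 values each. Leaving out each library gave 79 to 238 genes with a CV over 50%, and that count was 364 at a mean of at least 10 and 54 at a mean of at least 200. Without genes of mitochondrial and named ribosomal RNA, 1117 genes held 50% of the reads and the 10 leading genes held 12.96%. Dominant pairs numbered 238 at a combined mean of at least 500. With only members of no other list, the egg coat list came to 0.00164%, liver to 0.521%, intestine to 0.183%, epidermis to 0.719%, connective tissue to 0.518%, inflammation to 0.0707%, melanophore to 0.0376%, hatching gland to 0.0218% and early embryo to 0.0112%. Over all results, 20 lists moved when shared members were left out, and leaving out replicate 4 moved 10 values. Of the counts of list and family members highest or lowest in a library that the report gives, none changed by more than 1 under TMM. By the plain read total, the 13 neuron genes highest in replicate 1 became 15. No other of these counts changed by more than 1. The counts over all 18369 genes, from which the comparison shares come, did move. Highest in replicates 1 to 4 were 4962, 2594, 5925 and 4888 genes. By the plain read total these were 5881, 2203, 5588 and 4697. Lowest in replicate 1 were 5132 genes, and 4259 by the plain read total. Calculations per kilobase were not run. Genes near 50 normalized counts carry a counting CV near 14%, so their spread is the least certain.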
